A study of Mus musculus with 15 samples.

Results

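The fibrillar collagens and the lysyl oxidases that cross-link them were followed in mouse hearts through the probe sets that the platform annotation gives to exactly 1 of 8 gene symbols. These were the collagen genes Col1a1, Col1a2, Col3a1, Col5a1 and Col5a2 and the oxidase genes Lox, Loxl1 and Loxl2. Of the 8 genes, 7 had such a probe set, 17 probe sets in all, among 18194 genes named on the array. Both probe sets of Loxl2 also carry another symbol, so Loxl2 was not analysed here. The arrays held total RNA of whole hearts from 7 male mice heterozygous for Lmna H222P and from 8 male control mice, all given as 10 weeks old. The labels describe the controls no further and say nothing of litters, strain or batches. The p-values set a group difference against the spread between these samples only. Any difference of litter, strain or batch between the groups cannot be told apart from genotype. Lmna encodes the nuclear lamins A and C, and patients with the H222P substitution can have muscle weakness and cardiomyopathy. Each array gave 1 signal per probe set on a linear scale with a common trimmed mean, so the precision is limited by the number of arrays.

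Fibrillar collagens are secreted as procollagens, trimmed outside the cell and packed into the fibrils that give the heart wall its tensile strength. In the heart they are made mainly by fibroblasts. Types I and III form the bulk of the fibrils and type V takes part in starting and sizing them, while lysyl oxidases convert lysine side chains so that neighbouring molecules become cross-linked. Excess fibrillar collagen is the main material of cardiac fibrosis.

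None of the 17 probe sets passed the test between genotypes, and 1 heterozygous heart stood apart from the other 6 in the collagens. Heterozygous array 2 was the lowest of all 15 arrays in 9 of the 12 collagen probe sets, and in the brightest probe set of each of the 5 collagen genes. Across all tested probe sets it was the lowest array in 8.73%. The same array was the highest of the 15 in 2 of the 3 Lox probe sets, against 10.3% of all tested probe sets. Heterozygous array 6, whose share over all tested probe sets was not computed, was at the other end. It was the highest of the 15 in 8 of the 12 collagen probe sets. Results are therefore given with and without heterozygous array 2, an array singled out after these signals had been seen. In whole-heart RNA, fewer or more fibroblasts and less or more collagen RNA per fibroblast cannot be told apart.

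**Figure D1:**
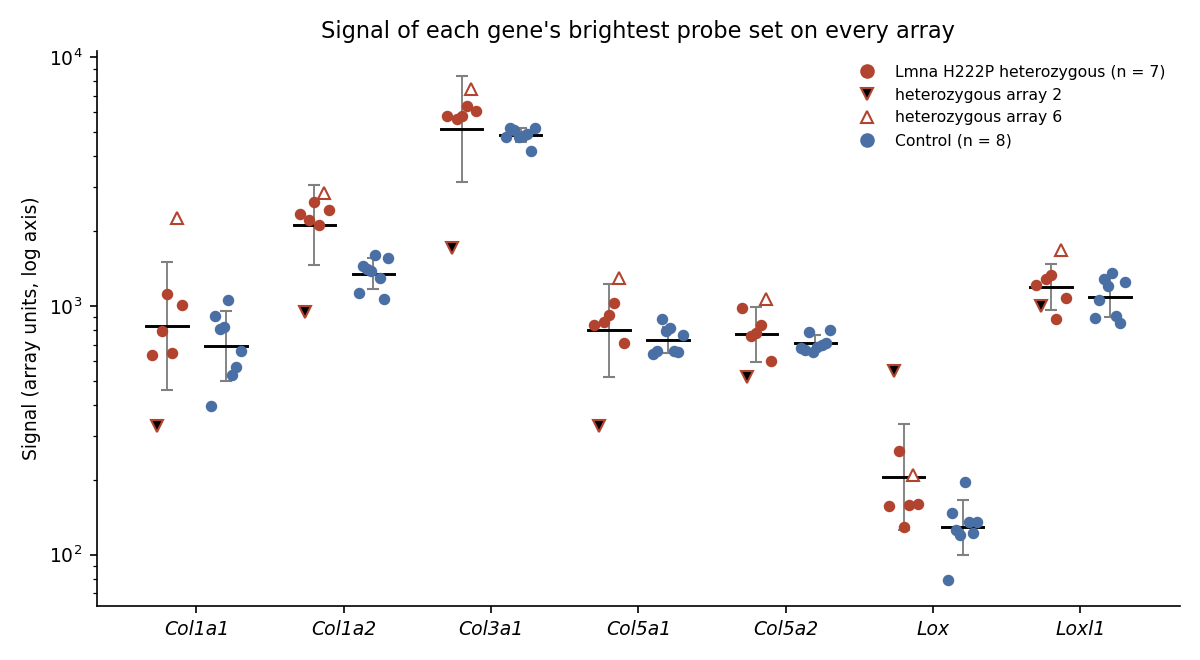
Signals of the brightest probe set of each gene, on a log axis, for heterozygous (left of each pair) and control arrays. Points are arrays, lines are geometric means and grey bars are 1 SD on the log2 scale. Heterozygous array 2 (black triangle) is the lowest point in all 5 collagens and the highest in Lox. The other 6 heterozygous arrays lie above every control in Col1a2 and Col3a1.

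Other values of heterozygous array 2 were read beside its collagen signals. Its log2 ratio of the 3′ to the 5′ beta-actin control probe sets, a measure that grows as RNA degrades, was 1.69, the highest of the 15. The ratio ranged from 0.33 to 1.69 on heterozygous and from 0.29 to 1.23 on control arrays. Heterozygous arrays 5 and 3, at 1.41 and 1.32, also lay above every control. Averaged over the brightest collagen probe sets, the log2 signal minus the control mean was 0.34 and 0.30 on them and -0.94 on array 2. Whether the ratio goes with the collagen signals was not tested. With that ratio as a covariate the difference of Col1a2, described next, was 0.81 with a limma adjusted p of 0.0799. The summed signal of 15 fibroblast markers that are not members was 35153.7 on heterozygous array 2. It was 34763.6 to 50968.6 on the other heterozygous arrays and 22800.4 to 34348.7 on control arrays. The fibroblast proteoglycan gene Dcn, the fibroblast receptor gene Pdgfra and the small proteoglycan gene Lum read 13915.8, 489.6 and 525.4 units on that array. The range over the 7 heterozygous arrays was 9164.6 to 17666.6 for Dcn, 489.6 to 913.4 for Pdgfra and 525.4 to 2419.3 for Lum. The array was thus inside the range for Dcn and the lowest heterozygous array for Pdgfra and Lum. Dcn and the marker Gsn, at 13915.8 and 11604.9 units, were the largest parts of the fibroblast sum on array 2. Of the 15 fibroblast markers, array 2 was the lowest heterozygous array in 6 and the lowest of all 15 arrays in 4. The 9 markers listed as ventricular muscle summed to 111942 to 292873 units in heterozygous and 144113 to 426531 units in control hearts. Most of them, such as Myh6 and Tnnt2, are not specific to the ventricle. The heterozygous maximum of 292873 units was that of array 2, and the other heterozygous arrays reached at most 264293 units. Atrial markers summed to 7210.4 to 40954.3 units in heterozygous and 7043.3 to 11523.3 units in control hearts. On array 2 the atrial sum was 25006.4 units, and 19735 units of it were from Nppa. Of the 8 atrial markers, 3 passed as higher at a limma adjusted p under 0.05, and Nppa was not among them. At an unadjusted limma p under 0.05, 5 were higher and 1 lower. Red cell and platelet markers summed to 1747.5 to 3374 units in heterozygous (1851 on array 2) and 3440.7 to 4329.8 units in control hearts. Of 6 tested, 2 passed as lower, and 4 were lower at an unadjusted limma p under 0.05. Among all tested probe sets 0.252% passed, and 4.44% were higher and 10.1% lower at an unadjusted p under 0.05. The part of these cell types in the members' signals was not tested.

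Col1a2, which encodes the second chain of type I collagen, had the smallest p of the members. Its brightest probe set (1450857_a_at) had a lowest, median and highest signal of 943.8, 2341.4 and 2857.6 units in heterozygous hearts and 1066.8, 1395.5 and 1609.4 units in control hearts. Without array 2 the lowest heterozygous signal was 2120.3 units, so 6 of 7 heterozygous hearts lay above every control and 1 lay below every control. Mean log2 signals were 11.05 ± 0.53 (SD, n = 7) in heterozygous and 10.40 ± 0.21 (SD, n = 8) in control hearts. The difference was 0.65 ± 0.21 (SE), a ratio of 1.57, with a 95% interval of 0.20 to 1.10 and a limma adjusted p of 0.202.

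Without heterozygous array 2 the Col1a2 difference was 0.84 ± 0.14 (SE), a ratio of 1.79, with a limma adjusted p of 0.0292. It was the only member probe set to pass in any of the fits that left out 1 array, and 0.252% of all tested probe sets passed in that fit. At an unadjusted limma p under 0.05 that fit had 3 of 17 members, 1 probe set each of Col1a2, Col3a1 and Col5a1, all higher in heterozygous hearts, against 3.97% of all tested probe sets higher and 14.6% in either direction. Because the array was chosen for its low collagen signals, these values describe the other 14 arrays and are no independent test. The next probe set of Col1a2 (1423110_at) read 370.7 to 1909.5 units in heterozygous and 676.1 to 939.7 units in control hearts. Its difference was 0.24 ± 0.27 (SE), with a limma adjusted p of 0.726. The weakest Col1a2 probe set (1446326_at) exceeded a log2 signal of 4 on 10 of 15 arrays and its groups overlapped widely.

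Col3a1 encodes type III collagen, which forms mixed fibrils with type I. Its brightest probe set (1427883_a_at) had a lowest, median and highest signal of 1718.3, 5824.3 and 7479.6 units in heterozygous and 4216.6, 4869.95 and 5216.7 units in control hearts. Again 6 of 7 heterozygous hearts lay above every control and array 2 lay below every control. The means were 12.33 ± 0.71 (SD, n = 7) in heterozygous and 12.25 ± 0.10 (SD, n = 8) in control hearts, a difference of 0.08 ± 0.25 (SE) with a limma adjusted p of 0.914. Leaving out array 2 gave a mean of 12.59 ± 0.15 (SD, n = 6) in heterozygous hearts, a difference of 0.34 ± 0.12 (SE) and an adjusted p of 0.216, while leaving out heterozygous array 6 gave a difference of -0.011. The other probe set of Col3a1 (1427884_at) read 104.9 to 924.5 units in heterozygous and 259.5 to 349.5 units in control hearts, with a difference of 0.19 ± 0.33 (SE).

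Col1a2 and Col3a1 were the members whose groups separated completely once heterozygous array 2 was left out, in 1 probe set each. With all arrays 0 of 17 member probe sets had groups that did not overlap, against 0.468% of all tested probe sets. Without array 2 the count was 2 of 17, against 0.677% of all. Leaving out any other single array gave 0. Because array 2 was chosen for its low signals in these same genes, the 2 separations are a description. The 0.677% is no matched background, since the array was not chosen for the other probe sets.

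The 250 bases before the RefSeq start of these 2 genes (GRCm38.p6, plus strand, written 5′ to 3′) are shown. Such windows were at hand for only 3 members, the third being Col5a1, which is not shown. Across arrays Col5a1 also varied with Col3a1 (r = 0.91) and Col1a2 (r = 0.89), so co-variation does not single out this pair. Shared regulation was not tested. Capitals mark exact matches, on either strand, to CCAAT (the CCAAT box), CAGACA (known from elements that SMAD proteins bind), GGGCGG (known as the GC box) and TATAAA (known as the TATA box).
Col1a2, chr6:4505368-4505617: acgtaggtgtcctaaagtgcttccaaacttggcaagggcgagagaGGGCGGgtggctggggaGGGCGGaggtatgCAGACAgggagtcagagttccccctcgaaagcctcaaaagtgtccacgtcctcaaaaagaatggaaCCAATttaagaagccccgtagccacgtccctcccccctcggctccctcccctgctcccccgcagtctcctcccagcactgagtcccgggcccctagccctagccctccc
Col3a1, chr1:45311288-45311537: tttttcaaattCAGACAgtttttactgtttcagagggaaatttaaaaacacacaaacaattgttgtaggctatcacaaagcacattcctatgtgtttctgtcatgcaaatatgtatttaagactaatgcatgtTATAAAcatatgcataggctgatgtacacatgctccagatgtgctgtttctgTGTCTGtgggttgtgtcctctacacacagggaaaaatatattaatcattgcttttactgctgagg
Col1a2 held 2 GC boxes, 1 CAGACA and 1 CCAAT, the last beginning 109 bases before the start. Col3a1 held 2 CAGACA matches, beginning 239 and 65 bases before the start, and 1 TATAAA. No match overlapped another motif. Among 32851 promoter windows of the same length, 33.8% held CCAAT, 17.1% CAGACA, 32.7% GGGCGG and 12.4% TATAAA, so the matches are common and are descriptions only.

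Col1a1, which encodes the first chain of type I collagen, was measured by 2 probe sets that went opposite ways. The brighter one (1423669_at) had a lowest, median and highest signal of 329.6, 794.9 and 2262.2 units in heterozygous and 396.3, 734.4 and 1058.4 units in control hearts. Its groups overlapped, with 2 heterozygous hearts above and 1 below every control, and the difference was 0.27 ± 0.34 (SE) with a limma adjusted p of 0.747. Leaving out heterozygous array 2 gave 0.50 (adjusted p = 0.464), and leaving out array 6 in its place gave 0.033 (adjusted p = 0.973). With the actin ratio as a covariate the difference was 0.58 (adjusted p = 0.311). The other (1455494_at) had a lowest, median and highest signal of 264.3, 407.8 and 693.4 units in heterozygous and 373.1, 568.3 and 976.3 units in control hearts. That difference was -0.52 ± 0.23 (SE), with an adjusted p of 0.315 and an unadjusted limma p of 0.0382. Heterozygous array 2 was not the lowest in this probe set, and without it the difference was -0.45. The annotation used does not say which part of the transcript each probe set covers, so no direction can be given for Col1a1.

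Type V collagen was covered by Col5a1 and Col5a2. Col5a2 lies next to Col3a1 on the chromosome, with no protein-coding gene between them in GRCm38.p6. The brightest Col5a1 probe set (1416740_at) had a lowest, median and highest signal of 329.7, 862 and 1293.2 units in heterozygous and 642.9, 711.95 and 887.4 units in control hearts. Its difference was 0.13 ± 0.23 (SE), with a limma adjusted p of 0.832, and 0.34 ± 0.15 (SE) without array 2, with an adjusted p of 0.324. Of the weaker Col5a1 probe sets, 1434479_at had a difference of -0.25 ± 0.19 (SE) and 1416741_at of -0.23 ± 0.55 (SE). Col5a1 thus had probe sets on both sides of 0.

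In its brightest probe set (1422437_at) Col5a2 had a lowest, median and highest signal of 518, 780.2 and 1062.9 units in heterozygous and 653.5, 691.7 and 801.1 units in control hearts. The difference was 0.12 ± 0.16 (SE), with a 95% interval of -0.21 to 0.46 and a limma adjusted p of 0.759. The weaker probe set (1450625_at) had a difference of 0.66 ± 0.42 (SE), and 2 low controls, at 32.5 and 49.8 units, widened its control range. The groups of both probe sets overlapped.

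**Figure D2:**
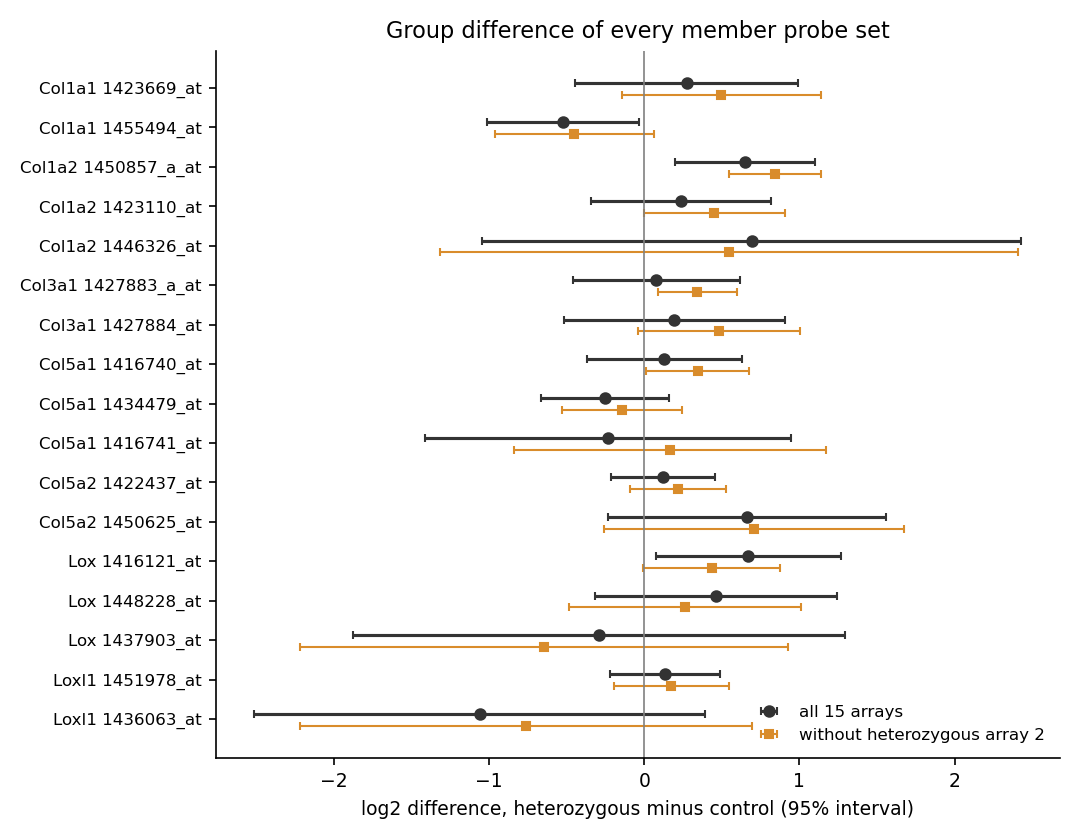
Log2 difference, heterozygous minus control, of all 17 member probe sets with 95% limma intervals, for all 15 arrays (circles) and without heterozygous array 2 (squares). Col1a2 1450857_a_at has the interval farthest above 0 without that array. The 2 Col1a1 probe sets lie on opposite sides of 0.

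Lox, the founding lysyl oxidase, had its largest signal on the array where the collagens were lowest. Its brightest probe set (1416121_at) had a lowest, median and highest signal of 129.4, 159.2 and 550.2 units in heterozygous and 78.8, 130.5 and 195.3 units in control hearts. The highest value was that of array 2, and the next heterozygous value was 260.1 units. In this probe set 3 of 7 heterozygous hearts lay above every control, and the groups overlapped. The means were 7.68 ± 0.71 (SD, n = 7) in heterozygous and 7.01 ± 0.36 (SD, n = 8) in control hearts, a difference of 0.67 ± 0.28 (SE) or a ratio of 1.59. The limma adjusted p was 0.292. Leaving out array 2 gave a difference of 0.43 ± 0.21 (SE), a ratio of 1.35, with an adjusted p of 0.351.

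Lox's second probe set (1448228_at) read 36.3 to 159.8 units in heterozygous and 22.4 to 111.1 units in control hearts, again with array 2 highest, and its difference was 0.46 ± 0.37 (SE). The weakest (1437903_at) exceeded a log2 signal of 4 on 7 of 15 arrays, the fewest of any member and the least that the filter admits. Loxl1, an oxidase tied to elastic fibres as well as collagen, had a lowest, median and highest signal of 884.3, 1219 and 1678.9 units in heterozygous and 853.8, 1133.3 and 1353 units in control hearts in its brightest probe set (1451978_at). Its difference was 0.13 ± 0.17 (SE), with a limma adjusted p of 0.751, and array 2 lay inside the range of the others. The weak second probe set of Loxl1 (1436063_at) read 4.9 to 123.3 units in heterozygous and 19.6 to 105.7 units in control hearts, and its difference was -1.06 ± 0.68 (SE).

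By limma's test after Benjamini-Hochberg adjustment, 0 of 17 member probe sets passed at 0.05, where 0.252% of all 38870 tested probe sets passed, and 0.0900% were higher in heterozygous hearts. The members' adjusted p ranged from 0.202 to 0.914. At an unadjusted p under 0.05 there were 3 of 17 (17.6%), against 14.6% of all tested probe sets, a share near the background. They were 2 higher (Col1a2 and Lox) and 1 lower (Col1a1), where 4.44% of all were higher and 10.1% lower. The median difference was 0.13 over the 17 probe sets and -0.11 over all tested probe sets. Centring each array on its median moves the median of all tested probe sets to 0.10 and moves every member by the same amount. Loxl1 1451978_at, which is the members' median at 0.13, then had 0.34. The sign of a difference near 0 thus depends on the scaling, but centring leaves the gap between the medians as it was.

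The spread among heterozygous hearts was wider than among controls in 14 of the 17 probe sets, against 63.7% of all tested probe sets. Without array 2 this held in 10 of 17, against 60.9% of all. In Col3a1 the SD of log2 signal was 0.71 in heterozygous and 0.10 in control hearts, and 0.15 in heterozygous hearts without array 2. Col1a1 kept an SD of 0.68 in heterozygous hearts without array 2, against 0.47 in controls, where array 6 at 2262.2 units stood above the next heterozygous signal of 1116.5 units. Averaged over the brightest probe sets of the 5 collagens, the log2 signal minus the control mean was -0.94 on heterozygous array 2, 0.97 on array 6 and 0.29 to 0.48 on the other 5 heterozygous arrays. Control arrays lay between -0.27 and 0.19. The 6 heterozygous hearts other than array 2 thus lay above all 8 controls in this average, which describes chosen probe sets and was not tested. Weaker probe sets of these genes did not all follow it. In Col5a1 1434479_at 4 of 7 heterozygous hearts lay below every control and 1 above. In Col1a1 1455494_at 3 lay below every control and 0 above. In Col3a1 1427884_at 4 lay above every control and 2 below, and in Col1a2 1423110_at 3 above and 1 below.

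**Figure D3:**
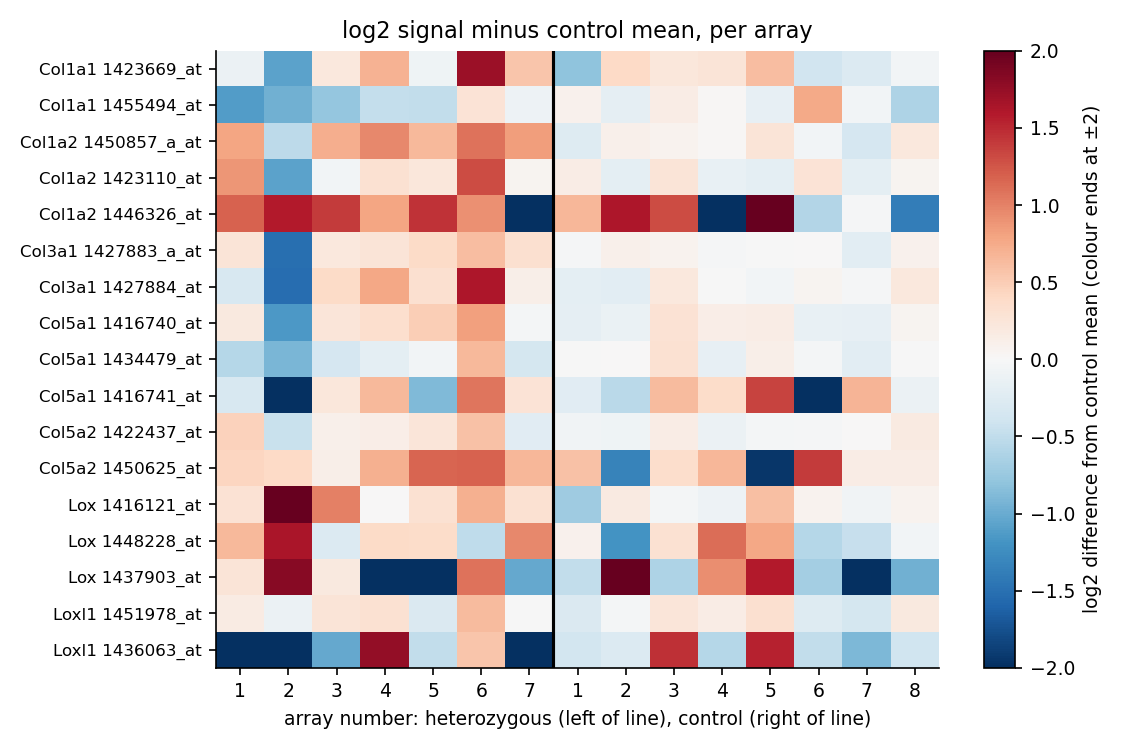
Log2 signal minus the control mean for each of the 17 member probe sets (rows) on each array (columns, heterozygous left of the line, control right of it), with colours ending at 2 on either side. Heterozygous array 2 is blue in most collagen rows and red in the Lox rows. The weak probe sets Col1a2 1446326_at, Lox 1437903_at and Loxl1 1436063_at vary on many arrays.

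By their brightest probe sets, the collagen genes varied together from heart to heart over all 15 arrays. On deviations from the group means over 15 arrays, r was above 0 in all 10 pairs of the 5 collagen genes, each by its brightest probe set, from 0.50 to 0.93 with a median of 0.79. Of these 10 pairs, 7 passed a permutation test of Pearson's r adjusted over all 21 member pairs, and 2 passed with Spearman's rho. The 2 chains of type I collagen, Col1a1 and Col1a2, had r = 0.82 (permutation p = 0.00044, adjusted p = 0.00924) and rho = 0.80 (permutation p = 0.00048, adjusted p = 0.00966). Without heterozygous arrays 6 and 2, the farthest from the median of Col1a1, their r was 0.70. Col1a2 and Col3a1 had r = 0.93 (permutation p = 0.00194, adjusted p = 0.0107) and rho = 0.66 (permutation p = 0.00839, adjusted p = 0.0440). Without heterozygous array 2 and control array 7 their r was 0.60. Their r lost the call when heterozygous array 2 alone was left out (r = 0.62, adjusted permutation p = 0.0834) and when heterozygous array 6 was (r = 0.92, adjusted permutation p = 0.0716). When all probe sets of a gene were averaged, r was 0.19 for Col1a1 and Col1a2 (adjusted permutation p = 0.703), 0.31 for Col1a2 and Col3a1 (adjusted permutation p = 0.446) and 0.34 as the median of the 10 pairs.

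Other pairs also leaned on the arrays at the ends, and the arrays left out differ by pair. For Col1a2 and Col3a1 heterozygous array 6 was kept, while the pairs given next lost heterozygous arrays 6 and 2. Col1a1 and Col3a1 had r = 0.69 (permutation p = 0.0268, adjusted p = 0.0511) and rho = 0.41 (adjusted permutation p = 0.123), and r was 0.10 without heterozygous arrays 6 and 2. This pair passed when control array 4, heterozygous array 1 or heterozygous array 5 was left out, with adjusted permutation p of 0.0494, 0.0471 and 0.0251. The 2 chains of type V collagen, Col5a1 and Col5a2, had r = 0.82 (permutation p = 0.00184, adjusted p = 0.0107) and rho = 0.62 (adjusted permutation p = 0.0746), and r was 0.48 without the same 2 arrays. Leaving out heterozygous array 2 alone, the 10 collagen pairs had r from 0.19 to 0.79 with a median of 0.60. Within the 8 control arrays the 10 collagen pairs had a median r of 0.38 and 0 passed. Within the 7 heterozygous arrays all 10 had r above 0 and 0 passed, and without the 2 arrays farthest from the median 3 of 10 had r above 0. Signals of one array share its scaling. With arrays centred on their medians the pair Col1a1 and Col3a1 had r = 0.77 (adjusted permutation p = 0.00348).

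Loxl1 varied with type I collagen. With Col1a1 it had r = 0.76 (permutation p = 0.00203, adjusted p = 0.0107) and rho = 0.72 (adjusted permutation p = 0.0325), and r was 0.69 without heterozygous arrays 6 and 2. With Col1a2 it had r = 0.62 (permutation p = 0.0191, adjusted p = 0.0446) and rho = 0.78 (permutation p = 0.00092, adjusted p = 0.00966), and r was 0.74 without heterozygous array 2 and control array 7. Within the 8 control hearts Loxl1 and Col1a2 made the only pair of 21 whose r passed, at r = 0.89 (exact permutation p = 0.00174, adjusted p = 0.0365) and rho = 0.88 (exact permutation adjusted p = 0.0760). Without the farthest control arrays, 7 and 1, that r was 0.76. By rho Loxl1 and Col5a1 made the only pair to pass in controls, at 0.93 (exact permutation adjusted p = 0.0469). In the 7 heterozygous hearts 0 of 21 pairs passed, although r reached 0.97 for Col1a2 and Col3a1 (exact permutation p = 0.0212, adjusted p = 0.0892), and r was -0.39 without arrays 2 and 6.

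In heterozygous hearts the r of Lox with each of the 5 collagens was below 0 with array 2 included, and above 0 for all but Col1a2 without it. The r of Lox with the 6 other genes was -0.86 to -0.17 among the 7 heterozygous arrays and 0.08 to 0.81 among the 8 control arrays. None of these 12 values passed an exact permutation test after adjustment, and the difference between the groups was not tested. Among the 6 heterozygous arrays other than array 2 Lox had r = -0.075 with Col1a2, 0.17 with Col3a1, 0.19 with Col1a1, 0.24 with Col5a1 and 0.16 with Col5a2.

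**Figure D4:**
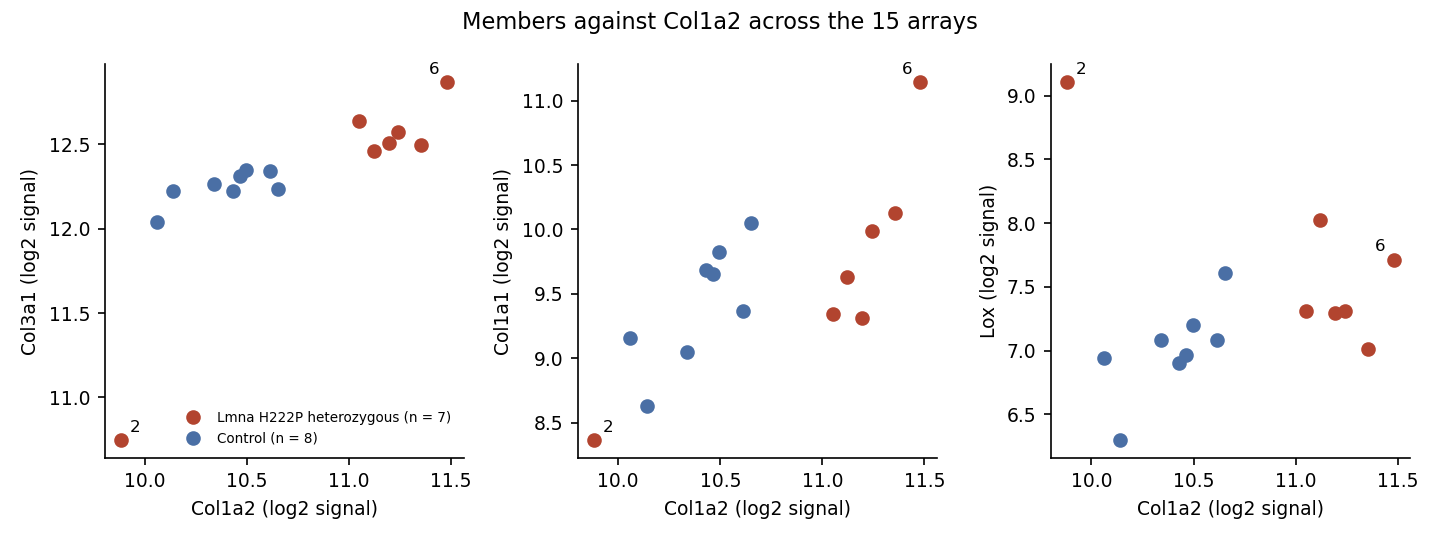
Log2 signals of Col3a1, Col1a1 and Lox against Col1a2 on the 15 arrays (brightest probe sets), with heterozygous arrays 2 and 6 numbered. Array 2 lies at the bottom left for the collagens and at the top left for Lox. The other heterozygous arrays lie to the right of all controls on the Col1a2 axis.

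Probe sets of one gene did not always follow each other. Of 13 such pairs over 15 arrays, 4 had an r that passed the permutation test adjusted over the 13, and 0 passed with rho, whose smallest adjusted permutation p was 0.0642. The 2 Col3a1 probe sets had r = 0.84 (permutation p = 0.00965, adjusted p = 0.0418), and 0.12 without heterozygous arrays 2 and 6. For the 2 Col1a1 probe sets r was 0.43 (permutation p = 0.145, adjusted p = 0.236), and -0.04 without the same arrays. For Col5a1 1416740_at and 1434479_at r was 0.82 (permutation p = 0.0134, adjusted p = 0.0436), and 0.54 without the same arrays.

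Differences within an array do not depend on how the array was scaled. The log2 signal of Col1a1 minus that of Col1a2 ranged from -1.88 to -0.34 in heterozygous and from -1.51 to -0.60 in control hearts. It averaged -1.35 ± 0.50 (SD, n = 7) in heterozygous and -0.97 ± 0.33 (SD, n = 8) in control hearts, a difference of -0.37 (two-sided exact permutation p = 0.108, adjusted over 4 comparisons 0.433). Without heterozygous array 6, which held the highest value of -0.34, it was -0.54, with an adjusted exact permutation p of 0.0413. Of the 15 omissions of a single array only this 1 passed, and the adjusted exact permutation p ranged up to 0.688. Col3a1 minus Col1a1 differed by -0.19 (exact permutation p = 0.458, adjusted p = 0.724), Col5a1 minus Col5a2 by 0.01 (exact permutation p = 0.961, adjusted p = 0.961) and Lox minus Col1a1 by 0.40 (exact permutation p = 0.543, adjusted p = 0.724). Lox minus Col1a1 had an SD of 1.38 in heterozygous hearts, against 0.27 in controls, and its difference was -0.061 without heterozygous array 2. The smallest p that the 6435 assignments allow is 0.000155.

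The genes that fold, cut and arrange collagens showed no called change. Of 7 tested genes for other fibrillar collagens and lysyl oxidases, 15 for hydroxylation and folding, 10 for secretion and cleavage and 14 for matrix proteins of the fibril surface, 0 passed in either direction. At an unadjusted limma p under 0.05 there were 0, 0, 3 (2 higher, 1 lower) and 2 (both higher) genes. Of all tested probe sets 0.252% passed, and 14.6% had an unadjusted p under 0.05, 4.44% higher and 10.1% lower. Their median differences were -0.45, -0.02, 0.21 and 0.29, beside -0.11 over all tested probe sets.

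The oxidase genes Loxl3 and Loxl4 had differences of -0.45 and -0.55, with limma adjusted p of 0.412 and 0.454. Serpinh1, the collagen chaperone of the endoplasmic reticulum, had a lowest, median and highest signal of 1789.7, 2663.4 and 3829.7 units in heterozygous and 2792.9, 3735.6 and 4147.2 units in control hearts. Its lowest value was on heterozygous array 2 and its difference was -0.43 (adjusted p = 0.344). Crtap, part of the prolyl 3-hydroxylase complex, had a difference of 0.32 (adjusted p = 0.451). Among processing genes Mep1a, a metalloprotease able to cut procollagen, had a difference of -0.61 (adjusted p = 0.239). Tll1, a tolloid protease of the same function, had 1.08 (adjusted p = 0.271) on signals of 10.5 to 58 units in heterozygous and 5.3 to 30.3 units in control hearts. Dcn, whose proteoglycan binds the fibril surface, read 9164.6 to 17666.6 units in heterozygous and 4553.9 to 8131.2 units in control hearts, with no overlap. Its difference of 0.88 ± 0.18 (SE) had an adjusted p of 0.0630, and it passed with the log2 filter at 6 (adjusted p = 0.0289). Ecm1, a secreted matrix glycoprotein gene, had a difference of 0.32 (adjusted p = 0.305).

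**Figure D5:**
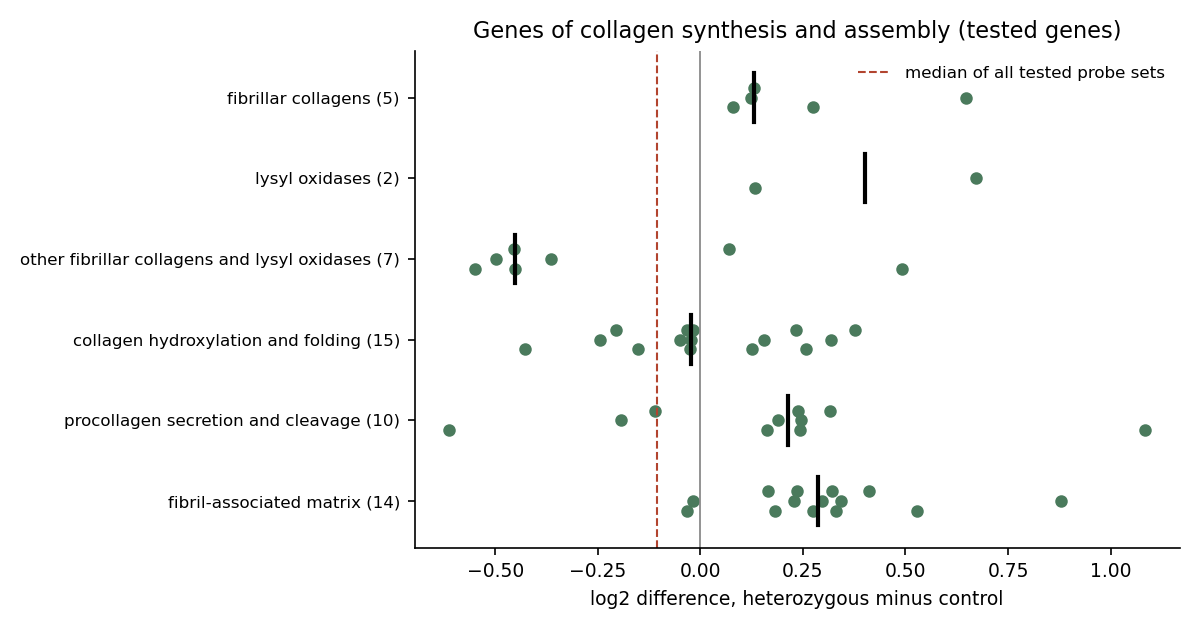
Log2 difference, heterozygous minus control, of each tested gene in the members and in 4 lists of collagen synthesis and assembly genes (points, staggered for sight), with the list median (black line) and the median of all tested probe sets (dashed line, -0.11). The number tested is in brackets. The point at 0.88 in the lowest row is Dcn, and the point at 1.08 is Tll1.

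The 8 genes whose signals were most like the mean of Col1a1, Col1a2 and Col3a1 were found among 6625 genes of mean log2 signal of at least 8, by r over 15 arrays on deviations from the group means. They were Col6a1 (r = 0.96), Col15a1 (0.92), Fscn1 (0.91), Vps9d1 (0.91), Pcsk6 (0.91), Clec16a (0.88), Lum (0.88) and Itga6 (0.87). Of the 8, 3 encode matrix proteins: a chain of microfibrillar type VI collagen (Col6a1), the basement membrane collagen of Col15a1 and the proteoglycan lumican (Lum). These values were picked as the highest of many and carry no test. Without heterozygous array 2 they were 0.85 for Col6a1 and 0.61 to 0.79 for the others, and every one of the 8 was below its group mean on that array, by 0.48 to 1.77 on the log2 scale. None of the 8 passed the test between genotypes, with limma adjusted p from 0.0977 for Clec16a to 0.829 for Lum.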

How the data were processed

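The authors' deposited table holds intensities, 1 signal per probe set and array for 15 arrays of biotin-labelled total RNA (RNeasy extraction, per the labels' protocols). The submitters' processing notes name GCRMA. The values are linear, from 0.1 to 80754.9, with a mean of 250.0 on every array after trimming 2% at each end, which is unlike GCRMA output, so how probes were summarised is unknown and weak signals scatter widely. The largest share of equal values between any 2 arrays was 0.290%. No scanner file or scan date was used, so no batch could be tested.

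Signals were log2-transformed with no pseudocount. After leaving out 64 control probe sets, those above a log2 signal of 4 on at least 7 of 15 arrays were tested (38870 of 45101), all 17 member probe sets among them. Weak members could pass through 1 group. Heterozygous hearts were set against control hearts in limma 3.58.1 (R 4.3.3) without covariates, calling a Benjamini-Hochberg adjusted p under 0.05 over all tested probe sets. The tested probe set of highest mean stood for its gene. Correlations used 100000 permutations within groups, or all pairings within 1 group, and within-array differences all assignments, in numpy 2.4.6 under Python 3.11.15. Tests were tried on simulated data first. Members and lists were chosen with earlier results of these data known. Named were all members, up to 2 genes of smallest p in each of 4 collagen lists, 8 genes most like Col1a1, Col1a2 and Col3a1, and marker genes whose values stand beside a result. RefSeq promoters (GRCm38.p6) were listed for 3 of the genes. Alternatives were other filters and scalings, a floor, array weights, another variance prior, the replicate number as a block, an actin covariate, other tests and probe set choices, and leaving out each array.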

Additional observations from a re-analysis of the deposited data

Results flagged for a closer look

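Of the 34 groups examined (17 probe sets in 2 groups each), 4 held an array far from the others by Dixon's criterion at 95%, which flags about 1 in 20 groups by chance. Heterozygous array 2 was far below the other heterozygous arrays in Col1a2 1450857_a_at, at 943.8 units with the nearest at 2120.3. The same array was far below them in Col3a1 1427883_a_at, at 1718.3 units with the nearest at 5627.4. Control array 7 was far below the other controls in that Col3a1 probe set, at 4216.6 units with the nearest at 4777.7. Heterozygous array 7 was far below the others in the weak probe set Col1a2 1446326_at, at 2.4 units with the nearest at 22.4.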

How the results depend on the processing

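No member probe set was called in any alternative fit other than Col1a2 1450857_a_at without heterozygous array 2 (0 to 1 called over the fits that left out 1 array, with a Col1a2 difference of 0.57 to 0.84). The number of all probe sets called moved more, from 98 to 192 with the log2 filter at 6, 273 with the floor at 6, 312 with a trended and robust prior, 65 with arrays centred on the median, 65 with quantile normalization, and 17 to 150 without 1 array. With the replicate block 1 was called, but same-numbered arrays did not deviate together (r of -0.06 to 0.06 in 7 pairs, 1 of 7 arrays correlating best with its own number), so the numbers do not pair the samples. In the list of fibril surface genes 1 gene, Dcn, was called with the filter at 6 (adjusted p = 0.0289), the floor (0.0226) and the trended and robust prior (0.00610). Averaging all probe sets of a gene turned the difference of Col1a1 to -0.13, of Col5a1 to -0.12 and of Loxl1 to -0.46, none called. It turned the within-array differences of Col3a1 minus Col1a1 to 0.26 and of Col5a1 minus Col5a2 to -0.51, and lowered r to 0.19 for Col1a1 and Col1a2, 0.31 for Col1a2 and Col3a1 and 0.34 for the median of the 10 collagen pairs. The averages include weak probe sets, and the cause was not tested. With arrays centred on the median Col1a1 and Col3a1 passed at r = 0.77. Col5a1 1416741_at turned to 0.32 with the actin ratio as covariate and to 0.11 without the 4 arrays of highest ratio, a choice made after seeing the data. Col1a2 then had 0.81 (adjusted p = 0.0799) with the covariate and 0.91 (adjusted p = 0.0657) without the 4 arrays. Without 1 array the ranges were -0.011 to 0.34 for Col3a1, -0.043 to 0.48 for Col3a1 1427884_at, -0.54 to 0.17 for Col5a1 1416741_at, -0.64 to 0.055 for Lox 1437903_at, -0.54 to -0.28 for Col1a1 minus Col1a2, -0.032 to 0.13 for Col5a1 minus Col5a2 and -0.061 to 0.63 for Lox minus Col1a1. The r ranged from 0.59 to 0.74 for Col1a1 and Col3a1 and from 0.62 to 0.95 for Col1a2 and Col3a1, which lost the call without heterozygous array 2 (adjusted permutation p = 0.0834) and array 6 (0.0716). Weak probe sets under the filter at 6 could not be fitted there.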

Other observations

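Markers of other cells that a heart sample can hold were read beside the collagens, each gene by its brightest tested probe set. Among 15 fibroblast markers outside the members 0 passed, 6 had an unadjusted limma p under 0.05, all higher in heterozygous hearts, and the median difference was 0.27. Of all tested probe sets 0.252% passed, and 14.6% had an unadjusted p under 0.05, 4.44% of all being higher. Dpep1 (0.63, adjusted p = 0.172) and S100a4 (1.21, adjusted p = 0.228) were among the 6. Without heterozygous array 2, Pdgfra passed (0.76, adjusted p = 0.0451), as did the smooth muscle actin gene Acta2 (0.86, adjusted p = 0.0406). With all arrays the contractile genes Acta2 (0.77), Tagln (0.89), Myh11 (0.60) and Cnn1 (1.41) had differences above 0 at an unadjusted limma p under 0.05, and the pericyte marker Rgs5 (-0.43) one below 0, with adjusted p from 0.0755 to 0.230.

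Apart from the atrial and blood lists, no marker list held a called gene with all arrays. The median difference was 0.38 over 8 smooth muscle and pericyte markers, 0.14 over 8 endothelial, 0.22 over 8 macrophage and 0.41 over 9 valve and cartilage markers. It was -0.39 over 6 epicardial, 0.11 over 3 adipocyte and -0.02 over the 9 markers listed as ventricular, beside -0.11 over all tested probe sets. Of the 9 valve and cartilage markers 2 had an unadjusted limma p under 0.05 and were higher, Comp (1.30, adjusted p = 0.0659) and Chad (1.41, adjusted p = 0.171), and 1 was lower, Acan (-0.90, adjusted p = 0.306). In the same list Sox9 had a difference of -0.53 and Scx of -0.33. Postn, a matrix protein gene of activated fibroblasts, read 5925.5 units on 1 heterozygous array and 539.7 units on array 2, against 801 to 1212.9 units in control hearts. The genes named here were chosen after their values had been seen.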
